A study of Mus musculus with 6 samples.

Results

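Emx2, Lhx9, Six4, Lhx2 and Osr1 are transcription factor genes of the tissue from which the mouse gonad forms, and 3 of these 5, Emx2, Lhx9 and Osr1, had a row among the 11736 genes of the deposited tables. The members were taken by gene symbol alone. Six4 and Lhx2 have no row in the tables used and are not analysed here. Of the 3 genes that were read, Emx2 and Lhx9 encode homeodomain proteins and Osr1 encodes a zinc finger protein, so the name homeobox factors holds for Emx2 and Lhx9 and not for Osr1. RNA was measured in 3 Cdyl-KO and 3 Cdyl-Het libraries of gonadal somatic cells from male (XY) C57BL/6 embryos at stage E11.5, when the gonad can still become a testis or an ovary. Cdyl-KO stands for a homozygous and Cdyl-Het for a heterozygous deficiency of Cdyl, which encodes a chromodomain protein of transcriptional repression. The controls thus also carry a defective copy of Cdyl, and both groups carry Nr5a1-hCD271. By the name of this genotype, the surface marker hCD271 is tied to Nr5a1, and cells positive for hCD271 were collected with magnetic beads. The labels describe neither the mutation nor the origin of the samples (single embryos, pools or litters). P-values thus speak of the variation among these libraries, part or all of which may be technical.

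The gonad arises from the coelomic epithelium on the surface of the mesonephros, and a small set of transcription factors is needed there before any testis or ovary programme begins. In mice, loss of Emx2 removes the kidneys, gonads and genital tracts, loss of Lhx9 stops the gonad from forming, and loss of Osr1 disturbs the intermediate mesoderm that gives rise to kidney and gonad. LHX9 acts with WT1 on the gene Nr5a1, which encodes the steroidogenic factor SF-1. SIX4 is a homeodomain protein that in mice takes part in the control of Nr5a1 and Zfpm2, and LHX2 is the closest relative of LHX9 in the LIM homeodomain family.

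Because Emx2 and Lhx9 rose together in the comparison described further on, the windows around their RefSeq start sites (build GRCm38.p6, which is mm10; 250 bases before and 50 bases after the start) are shown here. Osr1 has no entry in the table used. The capitals mark letters found by a search on both strands for 6 short motifs. Emx2 lies on the forward strand at chr19:59458440-59458739 and Lhx9 on the reverse strand at chr1:138842395-138842694, each written 5′ to 3′ in the direction of the gene.
Emx2: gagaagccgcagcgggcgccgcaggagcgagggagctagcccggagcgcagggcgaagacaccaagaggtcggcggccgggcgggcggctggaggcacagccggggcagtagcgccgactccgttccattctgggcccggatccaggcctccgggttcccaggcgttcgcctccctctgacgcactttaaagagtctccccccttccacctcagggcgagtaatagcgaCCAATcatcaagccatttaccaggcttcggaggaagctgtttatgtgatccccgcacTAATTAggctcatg
Lhx9: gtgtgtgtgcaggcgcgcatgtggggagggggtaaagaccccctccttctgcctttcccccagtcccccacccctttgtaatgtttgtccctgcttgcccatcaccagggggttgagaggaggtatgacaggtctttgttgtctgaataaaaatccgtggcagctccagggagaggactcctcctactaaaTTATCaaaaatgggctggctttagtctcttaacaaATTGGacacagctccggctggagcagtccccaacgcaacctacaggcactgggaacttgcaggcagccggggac
Both windows held the CCAAT box (CCAAT or ATTGG), which 37.4% of the 32817 promoter windows in the table also held. Its first base was at position -21 in Emx2 and at -24 in Lhx9, counted with the start base as 0. The homeodomain core TAATTA was found in the Emx2 window only, at positions 36 to 41, and in 5.30% of all windows. The GATA core (GATAA or TTATC) was found in the Lhx9 window only, and in 25.4% of all windows. Neither window held the TCF/LEF core (CTTTGAT or ATCAAAG; 3.73% of all windows) or either arm of the RE1 element of the repressor REST as spelled here, TTCAGCACC (or GGTGCTGAA; 0.372%) and GGACAGC (or GCTGTCC; 6.56%). These matches describe letters in a window and are not evidence of binding. The Emx2 window had 26 CpG dinucleotides and the Lhx9 window 6, against a median of 7 over all windows.

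In the annotation (GENCODE M21, mm10), Emx2 spans 59458372 to 59465357 on chromosome 19, Lhx9 spans 138825186 to 138848577 on chromosome 1, and Osr1 spans 9570116 to 9581500 on chromosome 12. Both windows shown above lie inside the spans of their genes, at RefSeq starts downstream of the annotated 5′ ends (59458372 for Emx2 and 138848577 for Lhx9). Their CpG counts and motif matches thus do not describe those ends. The antisense gene Emx2os runs the other way and starts at 59458635, inside the Emx2 window shown above, and the exons of both genes overlap by 264 bases. Whether the counting used strand is not stated, so reads from that stretch may be shared. No exon of Lhx9 or Osr1 overlaps those of another annotated gene.

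The deposited values were treated as RPKM, in which a read count is divided by gene length in kilobases and by library size in M (mega) reads. The depth that their steps imply was 42.97 to 45.2 M reads in the Cdyl-KO libraries and 34.6 to 44.1 M reads in the Cdyl-Het libraries. Levels are given below as scaled RPKM, which are RPKM divided by 1 factor per library. Over all genes, 929 (7.92%) passed the threshold, 566 (4.82%) of them higher and 363 (3.09%) lower in Cdyl-KO, at an adjusted p under 0.05 (limma, Benjamini-Hochberg over all 11736 genes). This split depends on scaling: 60.9% of the called genes were higher after scaling and 16.4% (305 higher, 1558 lower) on the deposited values, where the median log2 change of all genes was -0.12, against -0.0042 after scaling. Nr5a1, Gata4 and Wt1, the defining genes of gonadal somatic cells, had percentiles of 97.5, 97.3 and 97.2 by level among all genes.

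Emx2 and Lhx9 were higher in Cdyl-KO, by 1.49 and 1.39 times the Cdyl-Het mean, and Osr1 did not pass the threshold. That is 2 of the 3 members read, beside 4.82% of all genes called higher, and 0 members lower, beside 3.09% of all genes; in either direction 7.92% of all genes were called. The members were chosen with earlier results of these data known, so this count is a description. The median log2 change of all genes was 0.06 in the highest of 4 equal groups by level, in which both Emx2 and Lhx9 lie, and -0.09 in the lowest, in which Osr1 lies.

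Emx2 had 82.0, 74.8 and 81.3 scaled RPKM in Cdyl-KO replicates 1, 2 and 3, against 58.1, 54.6 and 47.6 in Cdyl-Het replicates 1, 2 and 3. Every Cdyl-KO library lay above every Cdyl-Het library, as held for 16.8% of all genes. The means were 79.4 ± 3.97 in Cdyl-KO and 53.4 ± 5.34 in Cdyl-Het (SD, n = 3 each), a log2 change of 0.57 (SE 0.08, 95% interval 0.37 to 0.76, limma adjusted p = 0.0120). These levels stood for an implied 9323 to 10314 reads in Cdyl-KO and 6294 to 6685 in Cdyl-Het. Implied reads here and below take the annotated exon length as the gene length used, which is not stated. The rise of Emx2 passed the threshold in all 13 alternatives tried, with a log2 change of 0.43 on the deposited values and of 0.49 to 0.63 when a library was left out (adjusted p 0.0138 to 0.0470).

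Lhx9, the LIM homeodomain gene, had 34.2, 31.4 and 32.4 scaled RPKM in Cdyl-KO replicates 1, 2 and 3, against 25.7, 24.6 and 20.5 in Cdyl-Het replicates 1, 2 and 3. The groups did not overlap, and Cdyl-Het replicate 3 was the lowest library, as it was for Emx2. The means were 32.7 ± 1.42 in Cdyl-KO and 23.6 ± 2.77 in Cdyl-Het (SD, n = 3 each), a log2 change of 0.46 (SE 0.09, 95% interval 0.25 to 0.67, limma adjusted p = 0.0259). The call on Lhx9 was lost when Cdyl-KO replicate 1, 2 or 3 was left out (adjusted p = 0.0854, 0.0619 and 0.0716) and when Cdyl-Het replicate 2 was (0.0682), at log2 changes of 0.43 to 0.49. Over all alternatives its adjusted p ran between 0.0237 and 0.0854.

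Osr1, the zinc finger gene, was read at a much lower level. It had 2.25, 2.66 and 2.18 scaled RPKM in Cdyl-KO replicates 1, 2 and 3, against 3.16, 2.96 and 2.68 in Cdyl-Het replicates 1, 2 and 3. The Cdyl-KO values all lay below the Cdyl-Het values, as held for 15.0% of all genes, with little room between Cdyl-KO replicate 2 and Cdyl-Het replicate 3. The means were 2.36 ± 0.260 in Cdyl-KO and 2.93 ± 0.244 in Cdyl-Het (SD, n = 3 each). The log2 change of -0.23 (SE 0.09, 95% interval -0.44 to -0.02 before adjustment) had a limma adjusted p of 0.165, and of 0.0517 to 0.389 over all alternatives. The Osr1 values stood for an implied 190 to 228 reads in Cdyl-KO and 236 to 258 in Cdyl-Het. Counting error alone would then be 6.62% to 7.25% of a Cdyl-KO value and 6.23% to 6.51% of a Cdyl-Het value. This takes the annotated exon length and treats every read as independent. The error is larger where both reads of a pair were counted. Osr1 is also expressed in the mesonephros. The summed level of 7 mesonephric epithelium markers was 17.3 to 21.6 scaled RPKM in Cdyl-KO and 15.1 to 21.5 in Cdyl-Het, and their part in the Osr1 values was not tested.

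**Figure D1:**
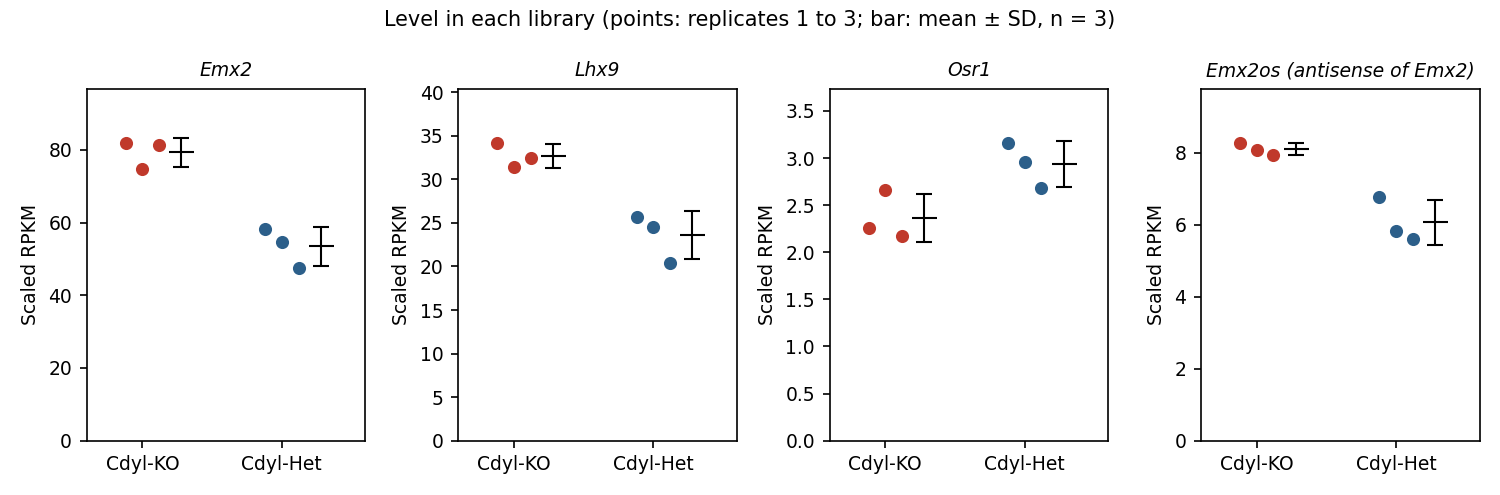
Level of Emx2, Lhx9, Osr1 and the antisense gene Emx2os in scaled RPKM (vertical axes, each from 0) in the Cdyl-KO and Cdyl-Het libraries. Points are libraries, bars are means with SD over 3 libraries. Emx2, Lhx9 and Emx2os lay higher in every Cdyl-KO library than in any Cdyl-Het library, and Osr1 lay lower.

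By level, the order was Emx2, then Lhx9, then Osr1 in every library, at percentiles of 96.8, 91.5 and 21.5 among all genes. RPKM is per kilobase, and no 2 neighbours in the order came within their spread over libraries. The order of Emx2 and Lhx9 depends on the gene lengths used, which are not stated. Annotated exons cover 3002 bases in Emx2 and 9494 in Lhx9. In implied reads, which rest on these annotated lengths, Lhx9 was the higher in every library (8815 to 13521, against 6294 to 10314 for Emx2). The implied depth came from single-exon genes under 1500 bases, so it does not check the lengths of Emx2 and Lhx9. By change, the percentiles were 98.0 for Emx2, 96.6 for Lhx9 and 11.8 for Osr1.

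**Figure D2:**
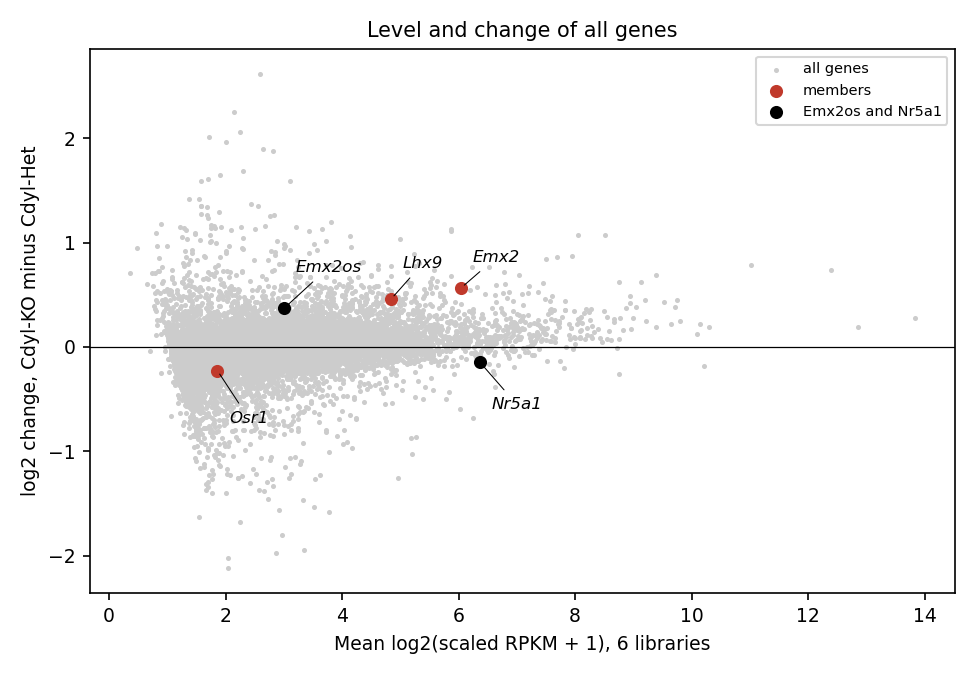
Change of every gene (log2 scale, Cdyl-KO minus Cdyl-Het, vertical axis) against its mean level as log2(scaled RPKM + 1) over 6 libraries (horizontal axis). Grey points are the 11736 genes, red points the 3 members, black points Emx2os and Nr5a1. Emx2 and Lhx9 have changes of 0.57 and 0.46, at percentiles of 98.0 and 96.6 by change among all genes. Osr1 lies among the low genes at -0.23.

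A ratio of a pair of genes within a library does not depend on the scaling factor. The ratio of Emx2 to Lhx9 was 2.40, 2.38 and 2.51 in Cdyl-KO and 2.26, 2.22 and 2.33 in Cdyl-Het. It differed little between groups (difference in log2 ratio 0.10), although the groups did not overlap. The ratio of Emx2 to Osr1 was 36.4, 28.1 and 37.4 in Cdyl-KO and 18.4, 18.4 and 17.8 in Cdyl-Het, and that of Lhx9 to Osr1 was 15.2, 11.8 and 14.9 in Cdyl-KO and 8.13, 8.30 and 7.64 in Cdyl-Het. For these 3 ratios the two-sided exact permutation test gave p = 0.1, the smallest that 3 against 3 libraries allow, and an adjusted p of 0.133 over 4 ratios computed after the values were seen.

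Emx2os, the antisense RNA gene beside Emx2, was higher in Cdyl-KO as well. It had 8.28, 8.08 and 7.94 scaled RPKM in Cdyl-KO replicates 1, 2 and 3, against 6.77, 5.82 and 5.61 in Cdyl-Het replicates 1, 2 and 3. The log2 change was 0.37 (SE 0.07, limma adjusted p = 0.0274). The call on Emx2os was lost on the deposited values and when any library other than Cdyl-Het replicate 1 was left out (adjusted p up to 0.0902; 0.0140 to 0.0902 over all alternatives). The ratio of Emx2 to Emx2os averaged 9.80 ± 0.501 in Cdyl-KO and 8.81 ± 0.488 in Cdyl-Het, and these groups overlapped (exact permutation p = 0.2). Without strand, reads of the shared 264 bases cannot be told apart between Emx2 and Emx2os.

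Nr5a1, Gata4 and Wt1, the core factors of gonadal identity, did not pass the threshold, and Emx2 and Lhx9 were higher relative to each of them in every Cdyl-KO library. Nr5a1 averaged 77.6 ± 6.87 scaled RPKM in Cdyl-KO and 85.9 ± 7.57 in Cdyl-Het (adjusted p = 0.349), Gata4 averaged 75.0 ± 5.77 in Cdyl-KO and 79.2 ± 7.93 in Cdyl-Het (0.632), and Wt1 averaged 75.7 ± 1.58 in Cdyl-KO and 70.6 ± 4.65 in Cdyl-Het (0.340; SD, n = 3 each, limma). The ratio of Emx2 to Nr5a1 was 1.05, 1.06 and 0.965 in Cdyl-KO, against 0.739, 0.582 and 0.557 in Cdyl-Het. The 2 genes were thus at about the same level per length in Cdyl-KO, and Emx2 was the lower in Cdyl-Het.

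The ratio of Lhx9 to Nr5a1 was 0.440, 0.445 and 0.385 in Cdyl-KO, against 0.327, 0.262 and 0.239 in Cdyl-Het. Against Gata4 and Wt1 the difference in log2 ratio was 0.65 and 0.47 for Emx2 and 0.55 and 0.37 for Lhx9, against 0.72 and 0.62 with Nr5a1. For all 6 ratios the groups did not overlap. The exact permutation p was 0.1 each and 0.129 adjusted over 9 ratios, which cannot pass the threshold in this design. The levels of Emx2 and Lhx9 already did not overlap, so these ratios are no separate results. The share of all genes with such ratios was not computed. The ratio of Osr1 to Nr5a1 overlapped between groups (0.0308 ± 0.00615 in Cdyl-KO and 0.0344 ± 0.00507 in Cdyl-Het, exact permutation p = 0.4), as did that to Gata4 (p = 0.3). The ratio of Osr1 to Wt1 was lower in every Cdyl-KO library (0.0313 ± 0.00411 in Cdyl-KO and 0.0416 ± 0.00345 in Cdyl-Het, exact permutation p = 0.1).

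**Figure D3:**
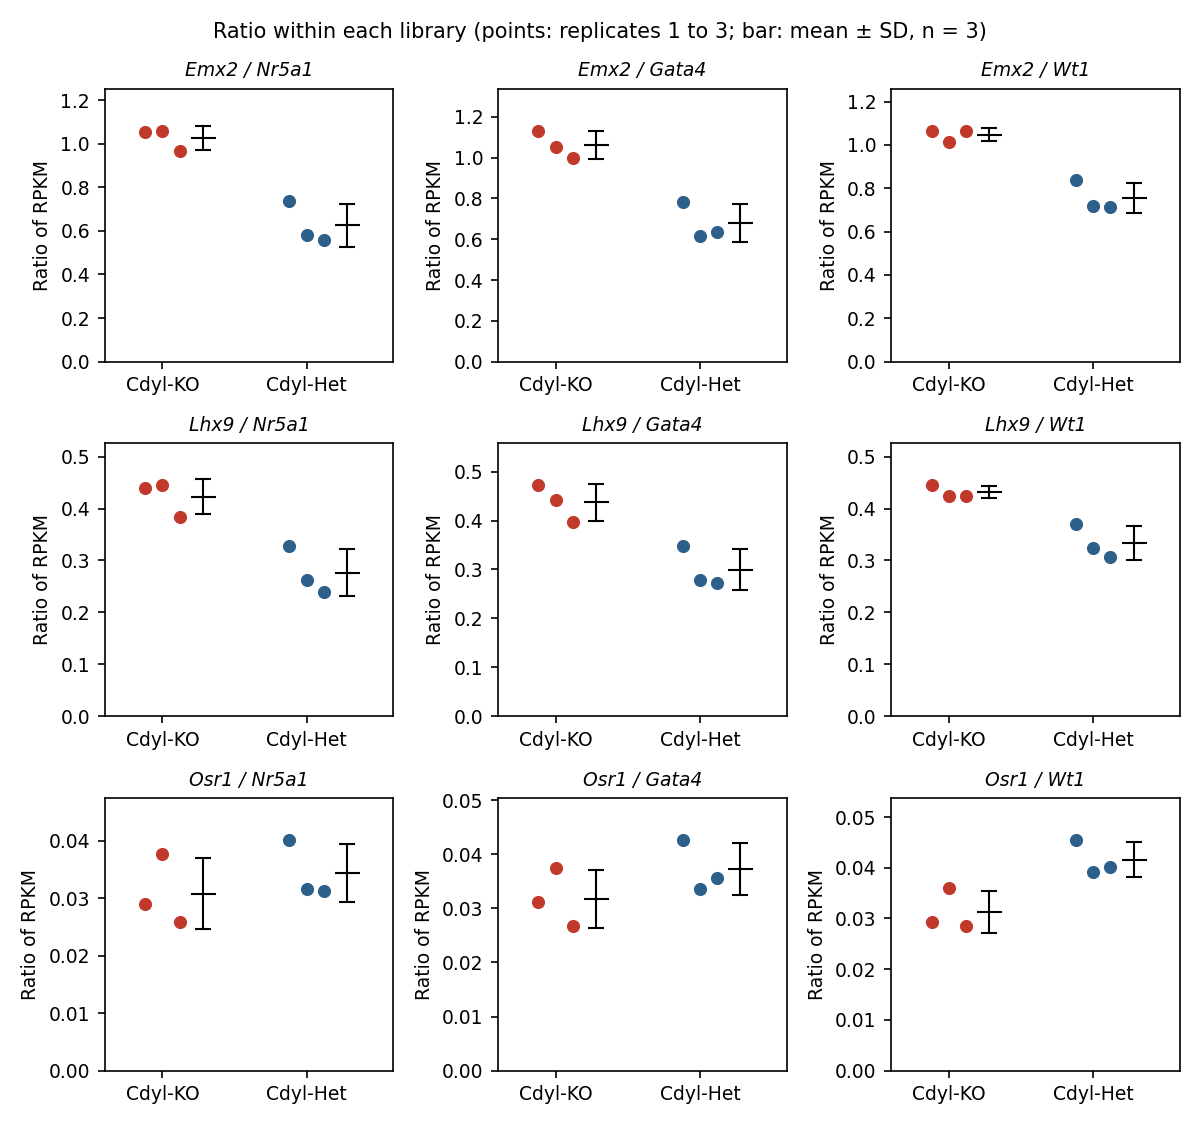
Ratio of each member's RPKM to that of Nr5a1, Gata4 and Wt1 in the same library (vertical axes, each from 0) in Cdyl-KO and Cdyl-Het. Points are libraries, bars are means with SD over 3 libraries. The ratios of Emx2 and Lhx9 do not overlap between groups in any of the 6 panels, and those of Osr1 overlap for Nr5a1 and Gata4.

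Among genes that studies in mice place downstream of the members, Sry rose and the others did not pass the threshold. Of these 5 genes, 1 was higher and 0 were lower, beside 4.82% and 3.09% of all genes. The list median was -0.15, against -0.0042 over all genes. Sry, the switch gene of testis determination, averaged 35.4 ± 2.40 scaled RPKM in Cdyl-KO and 26.7 ± 1.58 in Cdyl-Het (log2 change 0.39, limma adjusted p = 0.0211). The call on Sry was lost when Cdyl-KO replicate 1 or 3, or Cdyl-Het replicate 2 or 3, was left out (adjusted p up to 0.0754; 0.0197 to 0.0754 over all alternatives). Egfr is the growth factor receptor gene that Emx2 holds low in the coelomic epithelium. It averaged 1.27 ± 0.241 in Cdyl-KO and 1.90 ± 0.279 in Cdyl-Het (limma adjusted p = 0.133). The groups did not overlap, as held for 15.0% of all genes in this direction. Egfr was among the lowest genes read, at percentile 6.98 by level, and a part of Emx2 in its values was not tested. Zfpm2, a GATA4 cofactor gene, averaged 17.4 ± 0.802 in Cdyl-KO and 17.3 ± 1.499 in Cdyl-Het. Pax2, a kidney and duct gene, averaged 2.04 ± 0.486 in Cdyl-KO and 2.52 ± 0.642 in Cdyl-Het.

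Some factors of gonad formation outside the members rose as well. Of 18 such genes, 5 passed as higher and 0 as lower, beside 4.82% and 3.09% of all genes (list median 0.14). The other 13 did not pass the threshold. The list holds Nr5a1, Gata4, Wt1, Zfpm2 and Sry, given above, and Sry is among the 5 higher genes. Gadd45g and Kdm3a, which act upstream of Sry, had log2 changes of 0.60 and 0.45, with adjusted p of 0.00729 and 0.0127 (limma). Nr0b1, an orphan nuclear receptor gene, averaged 18.0 ± 0.645 scaled RPKM in Cdyl-KO and 12.5 ± 0.873 in Cdyl-Het (log2 change 0.50, adjusted p = 0.00851). Cited2, whose product works with WT1 on Nr5a1, had a log2 change of 0.35 (adjusted p = 0.0436) and was called in 4 of 13 alternatives (0.0411 to 0.125). The count of higher factors was 2 when Cdyl-KO replicate 1 was left out, and 3 when replicate 3 of either group was, and Kdm3a was not called without Cdyl-KO replicate 1 (adjusted p = 0.0518; 0.0118 to 0.0518 over all alternatives). On the deposited values 4 were higher and 1, Tcf21, was lower (adjusted p = 0.0383).

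The cofactors of the LIM homeodomain, sine oculis type and Osr protein families were mostly not past the threshold. Of 22 listed symbols, 17 had a row. Of these, 0 passed as higher and 1 as lower, beside 4.82% and 3.09% of all genes (list median 0.0044). Lmo4, which encodes a LIM-only protein that competes with LIM homeodomain proteins for LDB1, fell to 4.51 ± 0.250 scaled RPKM in Cdyl-KO, against 8.08 ± 0.960 in Cdyl-Het (SD, n = 3 each; log2 change -0.72, SE 0.09, limma adjusted p = 0.00814). Lmo4 was lower in all 13 alternatives (adjusted p up to 0.0392). Ldb1, the shared partner of LIM homeodomain proteins, averaged 31.0 ± 0.789 in Cdyl-KO and 29.2 ± 0.990 in Cdyl-Het (adjusted p = 0.338). Its partner gene Ssbp3 averaged 20.6 ± 0.514 in Cdyl-KO and 18.7 ± 0.589 in Cdyl-Het (adjusted p = 0.137). On the deposited values, 3 cofactors were lower, Lmo4 and the Groucho corepressor genes Tle2 and Tle4 (adjusted p = 0.0492 and 0.0470).

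Of 17 listed paralogs of the members, Six5 and Osr2 had a row. Six5 averaged 11.7 ± 0.572 scaled RPKM in Cdyl-KO and 10.6 ± 0.558 in Cdyl-Het, and Osr2 averaged 6.95 ± 1.003 in Cdyl-KO and 6.85 ± 0.910 in Cdyl-Het (limma adjusted p = 0.242 and 0.949). Osr2 was thus read at a higher level than Osr1 in both groups.

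**Figure D4:**
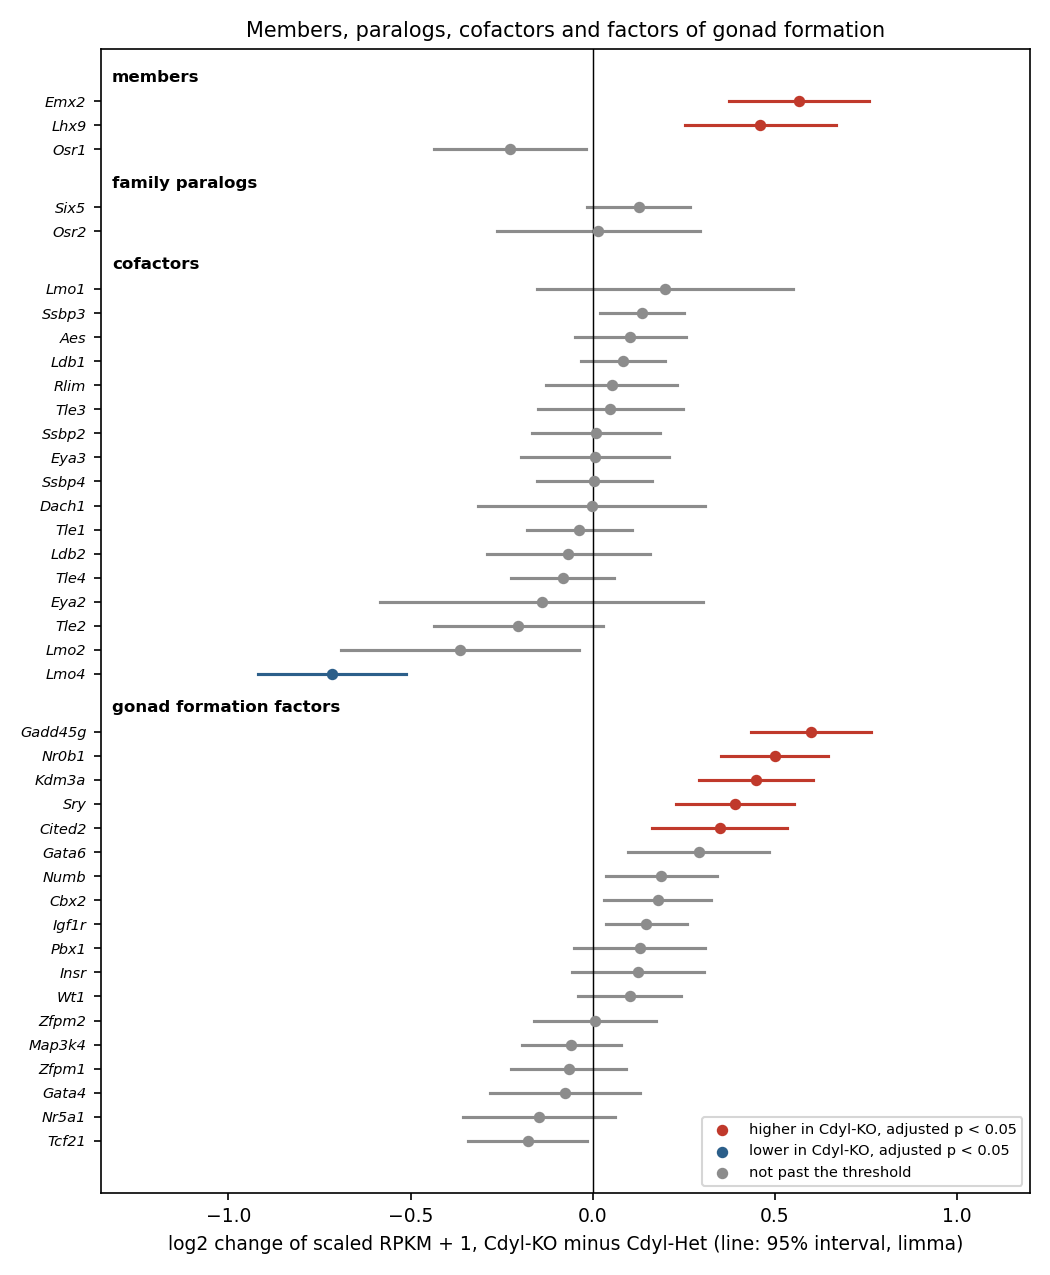
Log2 change of scaled RPKM + 1, Cdyl-KO minus Cdyl-Het (horizontal axis), with the 95% interval of the limma fit before adjustment, for the 3 members, their paralogs, their cofactors and factors of gonad formation. Red marks genes higher and blue genes lower in Cdyl-KO at an adjusted p under 0.05, grey marks genes not past it. Emx2 and Lhx9 stand at 0.57 and 0.46, and Lmo4 at -0.72 is the gene in blue.

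Among 17 other homeobox genes with a row, 1 passed as higher and 2 as lower, beside 4.82% and 3.09% of all genes. The other 14 were not past the threshold (list median 0.04). Msx1 rose more than Emx2 and Lhx9, to 15.0 ± 0.679 scaled RPKM in Cdyl-KO, against 6.43 ± 0.997 in Cdyl-Het (log2 change 1.11, limma adjusted p = 0.00245), and was called in all 13 alternatives. Zeb1, a repressor of epithelial genes, and Pknox1, a TALE factor, had log2 changes of -0.31 and -0.25 (adjusted p = 0.0249 and 0.0330). Zeb1 was called without Cdyl-Het replicate 1 and not without any of the other libraries (adjusted p up to 0.0861; 0.0112 to 0.0861 over all alternatives), and Pknox1 was not called without any of the 6 (up to 0.109; 0.0120 to 0.109 over all).

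The genes whose profile over the 6 libraries was most like that of Emx2 were Podxl, Cuedc2 and Zfp503, with root mean square differences of 0.03, 0.03 and 0.03 on the log2 scale after each gene was centred on its mean. The search covered 6411 other genes with a mean of at least 5 scaled RPKM. It used both groups, so the change between groups is part of the match and is no separate result. Podxl, a sialomucin of the coelomic epithelium, averaged 122 ± 3.20 in Cdyl-KO and 80.8 ± 7.42 in Cdyl-Het. For Lhx9 they were Dock4, Sulf1 and Atp6v1b2 (0.02, 0.03 and 0.04), which averaged 18.3 ± 0.802, 38.6 ± 2.60 and 14.1 ± 0.668 in Cdyl-KO and 13.1 ± 1.31, 27.7 ± 2.70 and 10.3 ± 1.05 in Cdyl-Het. For Osr1 they were Slc43a3, Cep192 and Hoxc8 (0.03, 0.04 and 0.04), and none of these passed the threshold.

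Markers of other cells moved beside the members. The coelomic epithelium, in which Emx2 and Lhx9 are themselves expressed, was marked by 9 genes with a row. Of these, 6 passed as higher and 0 as lower, beside 4.82% and 3.09% of all genes (list median 0.34). The summed level of the 9 markers was 276.0 to 285 scaled RPKM in Cdyl-KO and 183 to 220.0 in Cdyl-Het. Its largest parts were Podxl (means 122 and 80.8) and Aldh1a2 (74.7 and 56.1). Krt19, Upk1b and Bnc1 were not called, with log2 changes of -0.01, -0.22 and 0.33. Aldh1a2 had a limma adjusted p of 0.0499 and lost its call in 11 of 13 alternatives. The count of higher markers was 3 on the deposited values, 1 without Cdyl-Het replicate 3, and 2 without any single Cdyl-KO library or Cdyl-Het replicate 2. All 7 endothelial markers lay lower in every Cdyl-KO library than in any Cdyl-Het library, as did 15.0% of all genes (4 called; summed level 18.1 to 21.4 in Cdyl-KO and 30.0 to 33.5 in Cdyl-Het). Of the endothelial markers, 1 was called when Cdyl-KO replicate 1 or Cdyl-Het replicate 3 was left out, and 2 when Cdyl-KO replicate 3 or Cdyl-Het replicate 1 or 2 was. Of 9 interstitial mesenchyme markers 0 were called, with a summed level of 186 to 188 in Cdyl-KO and 171 to 187 in Cdyl-Het. The part of these shifts in the rise of Emx2 and Lhx9 was not tested, and in bulk RNA more cells of a type and more RNA per cell cannot be told apart.

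Early Sertoli cell genes and ovary-promoting signals give the setting of these changes. All 6 Sertoli genes with a row were lower, beside 3.09% of all genes (list median -1.41). They were led by Col9a3 (-2.02), Cst9 (-1.98) and Aard (-1.58). Sox9 averaged 25.1 ± 5.20 scaled RPKM in Cdyl-KO and 51.8 ± 7.34 in Cdyl-Het. The count of Sertoli genes called was 2 when Cdyl-Het replicate 3 was left out and 4 when Cdyl-Het replicate 2 was. All 5 ovary-promoting genes with a row were higher, beside 4.82% of all genes (list median 0.80). Among them were Wnt4 (0.55) and Rspo1 (0.47), whose changes were close in size to those of Emx2 and Lhx9. Msx1, given above among the homeobox genes, is also in this list. The call on Sox9 was lost without Cdyl-KO replicate 1 or Cdyl-Het replicate 2 or 3, and that on Rspo1 without Cdyl-KO replicate 1 or 2 or Cdyl-Het replicate 2 or 3 (limma adjusted p up to 0.0670 and 0.0804; 0.00936 to 0.0670 and 0.0101 to 0.0804 over all alternatives). In 3 germ cell markers and 2 blood cell markers 0 were called. Embryonic globin genes varied widely between libraries, with a summed level of 26.4 to 76.6 in Cdyl-KO and 25.8 to 146 in Cdyl-Het.

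Cdyl itself was read in every library, at 6.91 ± 0.125 scaled RPKM in Cdyl-KO and 8.03 ± 0.246 in Cdyl-Het (SD, n = 3 each; log2 change -0.19, limma adjusted p = 0.0635). Since the labels do not describe the altered stretch, this level is no check of the genotypes.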

How the data were processed

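The submitters' processing notes name STAR, Subread with featureCounts 1.6.4, and mm10. Which annotation and strand setting served, and how counts became values, is not stated in the sources used here. The authors deposited 1 value per gene and library without a unit. It is taken as RPKM from the deposited values, which are not whole and whose steps, multiplied by exon length in single-exon genes under 1500 bases, were whole for 87.98% to 90.0% of values under 60 reads (tolerance 0.05 reads). Of these, 63.5% to 71.4% were even, so both reads of a pair may often have been counted. No gene had a mean under 1.00502 in both groups.

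RPKM were divided by a factor per library (0.936 to 1.06; mean of log ratios to a reference library, trimmed by 30% of ratios and 5% of levels at each end). Limma 3.58.1 (R 4.3.3) was fitted to log2(scaled RPKM + 1) on group, with a spread that depends on level, and adjusted by Benjamini-Hochberg over 11736 genes (threshold 0.05). This pseudocount understates the change of low genes. The fit was also run on data simulated with its own estimated spread, which checks the calculation and not the calls made here. Ratios were compared by exact permutation tests (scipy 1.17.1). Sequences are from RefSeq (GRCm38.p6); 2 of 3 members matched.

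The genes named are the members, Nr5a1, Gata4 and Wt1, members of lists past the threshold or with high levels, a gene overlapping a member, and the 3 nearest profiles per member. Members and lists were chosen with earlier results of these data known. Alternatives were no scaling, median-of-ratios scaling, quantile normalization, a pseudocount of 0.1, a filter at 2 RPKM, no trend, a replicate block and each library left out.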

Additional observations from a re-analysis of the deposited data

How the results depend on the processing

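Emx2 stayed higher and past the threshold, and Osr1 stayed lower and not past it, in all 13 alternatives. Lhx9 kept its direction in all 13 and lost its call in 5. With a library left out, the log2 change was 0.49 to 0.63 for Emx2, 0.36 to 0.52 for Lhx9 and -0.29 to -0.19 for Osr1; the count of members higher was 1 to 2, that of all genes higher 197 to 417 and that of all genes lower 61 to 274. Without scaling the counts were 305 genes higher and 1558 lower. The difference in log2 ratio to Nr5a1 was 0.64 to 0.85 for Emx2, 0.53 to 0.75 for Lhx9 and -0.32 to -0.05 for Osr1 with a library left out, and each kept its sign with Gata4 or Wt1 as the denominator. Same-numbered libraries did not deviate together (correlation of deviations -0.03, -0.20 and -0.20 over 6655 genes). Libraries with different numbers gave -0.03 to 0.19. With 3 centred libraries per group these values constrain each other, so they cannot decide whether the replicate numbers pair the libraries. With the replicate number as a block, Lhx9 had the same log2 change of 0.46 with an adjusted p of 0.0548 (limma), 1 member was higher, and 217 genes were higher and 131 lower. The cause of these shifts was not tested. The Osr1 value rests on 190 to 258 implied reads, and the part of depth in its result was not tested. Six4 and Lhx2 had no row, so no alternative was run for them.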
